A study of Sus scrofa with 6 samples.

Results

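Adipocyte genes were examined in bulk RNA from the abdominal aorta of Wuzhishan miniature pigs, as the 10 genes ADIPOQ, LEP, PLIN1, PLIN4, CIDEC, CIDEA, LIPE, PNPLA2, FABP4 and PPARG out of 30477 genes in the deposited table. They were chosen by name: 9 of the 10 matched the gene name column, and CIDEA was found through the gene description of ENSSSCG00000024162, whose row carries only its identifier as a name. All 10 passed the filter on low values and were tested. The libraries came from male pigs kept for 6 months on normal chow (NC, 3 pigs) or on chow enriched in fat, cholesterol and fructose (HFCF, 3 pigs), with 1 library per pig. The sample labels give an age of 3 to 4 months for both groups, and the methods give an older age at purchase. The tissue is labelled only as abdominal aorta, and the sources used here do not say how much of the surrounding fat was trimmed away before RNA extraction.

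White adipocytes store triglyceride in a single large lipid droplet, release fatty acids from it through a chain of lipases, and secrete hormones such as adiponectin and leptin. The transcription factor PPARG switches on most of this programme. Arteries such as the aorta lie in a sheath of perivascular fat that borders on the adventitia, so RNA of a piece of aortic wall can include RNA of adipocytes. Several of these genes are also used outside fat: endothelial cells and macrophages make FABP4, lipid-laden macrophages use PPARG, and muscle uses PNPLA2.

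Levels are given as FPKM, fragments counted per length of transcript and per depth of the library, so that a level is relative to the rest of its library and the absolute read depth is unknown. Differences between diets are log2 fold changes of log2(FPKM + 0.1), HFCF minus NC, a scale on which changes of low genes come out too small. Adjusted p-values are from limma over all 15384 genes with a mean of at least 0.1 FPKM. Over all these genes the median difference was 0.32 on the log2 scale with the deposited values, and -0.00, -0.07 and 0.09 after median-ratio scaling, quantile normalization and rescaling to TPM. An adjusted p under 0.05 was reached by 3505 genes higher and 948 genes lower in the HFCF group, or by 2032 and 1968, 1748 and 1782, and 2229 and 1527 after the same 3 scalings. Relative depths estimated from the steps between low FPKM values, with NC 1 set to 1, were 1.09 in NC 2, 1.37 in NC 3 and 1.03 to 1.07 in the HFCF pigs.

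One control library stood apart in the adipocyte genes. NC 3 had the lowest NC value of all 10 genes, although it was the deepest library, and NC 2 had the highest NC value of 9. How often this held over all tested genes was not counted. Over all tested genes NC 3 had Pearson correlations of 0.958 and 0.957 with the other NC pigs, which correlated at 0.970 with each other. Each of the 10 genes is therefore given with all 6 pigs and without NC 3. Because NC 3 was singled out by its low values of these same genes, leaving it out raises their NC means by construction, and the values without it describe how much rests on that pig and are no separate evidence of a diet difference.

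With all 6 pigs, 2 of the 10 genes, PLIN4 and PNPLA2, fell in the HFCF group at an adjusted p under 0.05 (limma), and 0 rose, also at an unadjusted p under 0.05. The background was 28.9% of all tested genes called in either direction, 6.16% lower and 22.8% higher. By the study's own thresholds, a ratio of group means below 0.5 with an unadjusted p under 0.05, 1 of the 10 was lower, PLIN4, against 4.82% of all tested genes. The log2 fold change was below 0 for 9 of the 10 genes, against 34.3% of all tested genes, and the median over the 10 was -0.85. That 34.3% holds for the deposited values, with a median of 0.32 over all tested genes. After median-ratio scaling, quantile normalization and rescaling to TPM this median was -0.00, -0.07 and 0.09, and the share below 0 was not counted. Without NC 3, 5 of the 10 genes were called lower, ADIPOQ, PLIN1, CIDEC, LIPE and PNPLA2, and 0 higher, against a background of 4.63% lower and 18.2% higher. Without NC 1, NC 2, HFCF 1 or HFCF 2 in turn 1 gene was called lower, and without HFCF 3 2 were. PLIN4 had an adjusted p of 0.0564 without NC 3 (limma). In bulk RNA, fewer adipocytes, less of an RNA per adipocyte and less of it from other cells cannot be told apart. An exact two-sided permutation of 3 pigs against 3 could reach no p below 0.1, so only the fit across genes is used.

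**Figure D1:**
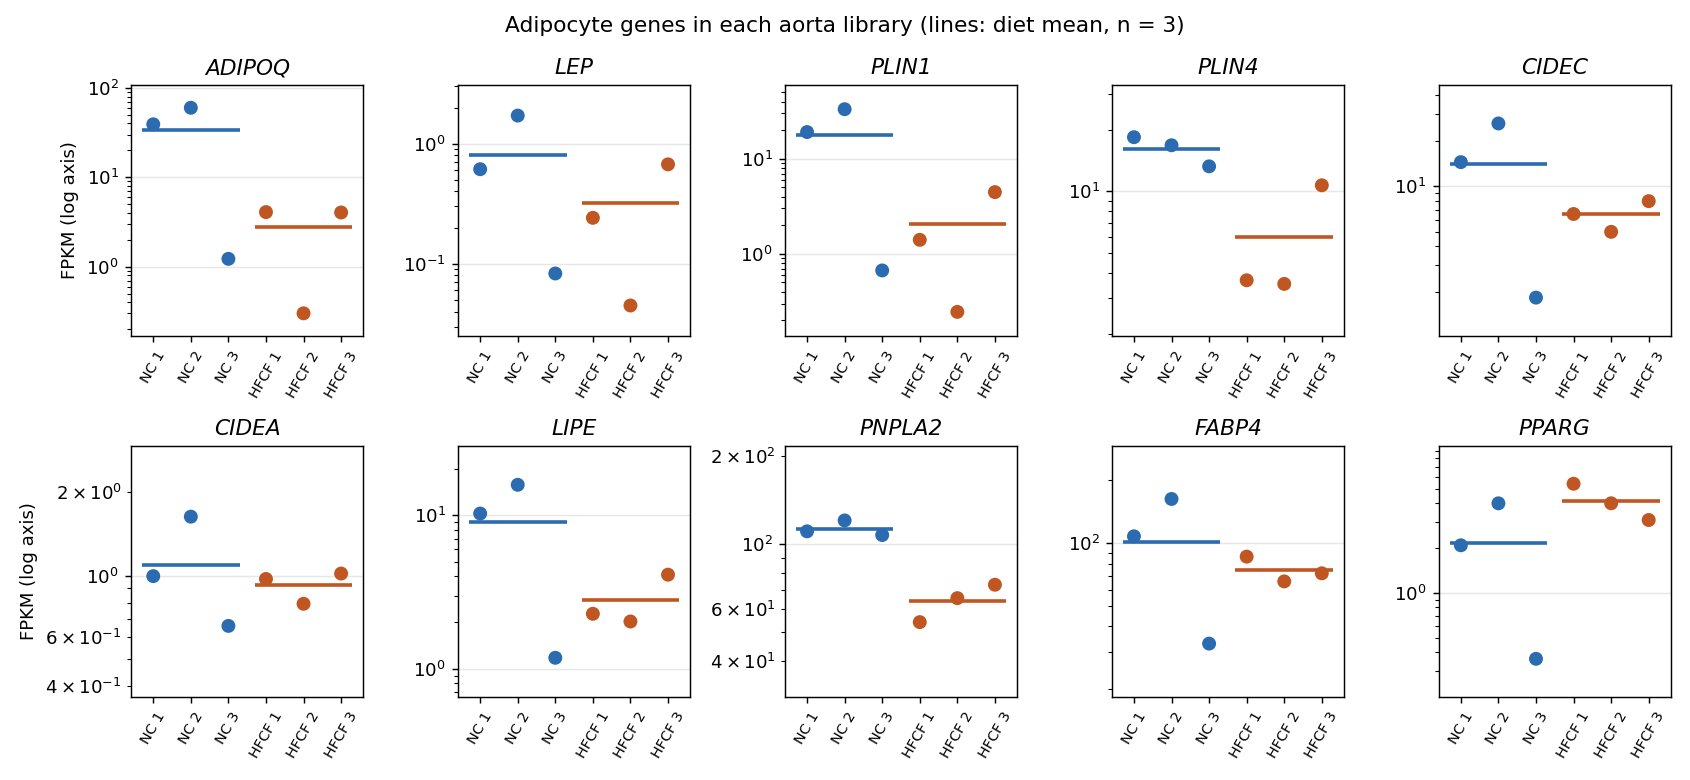
FPKM of the 10 adipocyte genes in each library on log axes, 1 panel per gene, with NC pigs in blue, HFCF pigs in orange and horizontal lines at the diet means (n = 3). ADIPOQ, PLIN1, LIPE and CIDEC were high in NC 1 and NC 2 and low in NC 3, whereas the 3 NC values of PNPLA2 lay together above the HFCF values.

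ADIPOQ (ENSSSCG00000039103) encodes adiponectin, a hormone made almost exclusively by adipocytes, and serves as their defining marker here. It had 39.1 FPKM in NC 1, 59.9 in NC 2 and 1.22 in NC 3, and 4.08, 0.30 and 4.04 FPKM in HFCF 1, HFCF 2 and HFCF 3. Both high values were those of NC pigs, while NC 3 lay inside the range of the HFCF pigs. The group means were 33.4 ± 29.7 and 2.81 ± 2.17 FPKM (SD, n = 3 each), which gave a difference of -2.94 on the log2 scale with a 95% interval from -6.62 to 0.75 (adjusted p = 0.198, limma). Without NC 3 it was -4.67, with an interval from -7.30 to -2.04 and an adjusted p of 0.0314 (limma).

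LEP (ENSSSCG00000040464) encodes leptin, the hormone that reports fat stores to the brain. Its levels were low throughout, with 0.61, 1.72 and 0.083 FPKM in the NC pigs and 0.24, 0.045 and 0.67 FPKM in the HFCF pigs. NC 2 alone lay above every HFCF pig. LEP differed by -0.88 on the log2 scale (95% interval -3.08 to 1.33, adjusted p = 0.513, limma) and by -1.76 without NC 3 (adjusted p = 0.167, limma).

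Among the lipid droplet proteins, PLIN1 (ENSSSCG00000001844) encodes perilipin 1, which coats the adipocyte droplet and gates the access of lipases to it. It had 19.1, 33.3 and 0.67 FPKM in the NC pigs and 1.40, 0.245 and 4.46 FPKM in the HFCF pigs, so NC 3 again fell within the HFCF range. Its log2 fold change was -2.57 (95% interval -6.15 to 1.01, adjusted p = 0.242, limma) and reached -4.25 without NC 3 (adjusted p = 0.0371, limma).

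CIDEC (ENSSSCG00000011557) encodes a protein that fuses droplets into the single large droplet of white fat. Its values were 14.4, 26.1 and 1.83 FPKM in the NC pigs and 6.55, 4.99 and 7.97 FPKM in the HFCF pigs. In contrast to ADIPOQ, every HFCF pig lay above NC 3 and below the other NC pigs. With all pigs the log2 fold change was -0.48 (adjusted p = 0.713, limma), without NC 3 it was -1.59 (adjusted p = 0.0235, limma), and without NC 2 it was 0.29.

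CIDEA, a relative of CIDEC that is abundant in brown fat, stood at 0.995, 1.63 and 0.66 FPKM in the NC pigs and at 0.97, 0.79 and 1.02 FPKM in the HFCF pigs. The HFCF values lay within the NC range. CIDEA differed by -0.14 on the log2 scale with a 95% interval from -0.97 to 0.69 (adjusted p = 0.788, limma), by -0.43 without NC 3 (adjusted p = 0.378, limma) and by 0.16 without NC 2.

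PLIN4 (ENSSSCG00000013512), a perilipin that coats small nascent droplets, behaved differently from PLIN1. It had 18.4, 16.8 and 13.3 FPKM in the NC pigs and 3.68, 3.53 and 10.7 FPKM in the HFCF pigs. All NC values, that of NC 3 included, lay above all HFCF values, as they did for 12.1% of all tested genes. PLIN4 had 0.47 and 0.28 times the FPKM of ADIPOQ in NC 1 and NC 2, and 10.8 times in NC 3. The part of adipocytes in the PLIN4 difference was not tested. PLIN4 fell from 16.2 ± 2.64 to 5.98 ± 4.10 FPKM (SD, n = 3 each), by 1.60 on the log2 scale with a standard error of 0.42 (adjusted p = 0.0296, limma). The call was lost when most single pigs were left out: leaving out any 1 of NC 1, NC 2, NC 3, HFCF 1 or HFCF 2 gave log2 fold changes of -1.50, -1.57, -1.74, -1.36 and -1.33 with adjusted p-values of 0.105, 0.0857, 0.0564, 0.0869 and 0.0858 (limma).

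The lipases work in sequence on stored triglyceride. PNPLA2 (ENSSSCG00000012841), adipose triglyceride lipase, removes the first fatty acid, and LIPE (ENSSSCG00000003018), hormone-sensitive lipase, acts on the diglyceride that remains. PNPLA2 had 110.7, 120.6 and 107.5 FPKM in the NC pigs and 54.2, 65.5 and 72.8 FPKM in the HFCF pigs, with no overlap. It fell from 112.9 ± 6.82 to 64.2 ± 9.34 FPKM (SD, n = 3 each), by 0.82 on the log2 scale with a standard error of 0.15 (adjusted p = 0.00962, limma). Without NC 3 the log2 fold change was -0.86 (adjusted p = 0.0244, limma), and over all 15 alternatives it was -1.18 to -0.71 and the adjusted p 0.00417 to 0.0381 (limma). NC 3 was as high in PNPLA2 as the other NC pigs, unlike its ADIPOQ level. Of the 8 markers of contractile smooth muscle, 6 fell (adjusted p under 0.05, limma; 1 of 8 with no filter on low values), against 6.16% of all tested genes. Their summed level was 15914 to 22729 FPKM in the NC pigs and 7997 to 12892 FPKM in the HFCF pigs. The part of smooth muscle in the PNPLA2 difference was not tested.

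LIPE had 10.3, 15.8 and 1.18 FPKM in the NC pigs and 2.28, 2.03 and 4.10 FPKM in the HFCF pigs. NC 3 was the lowest of all 6 pigs, and the other NC pigs were the highest. The log2 fold change was -1.10 (95% interval -3.20 to 0.99, adjusted p = 0.384, limma) and -2.21 without NC 3 (standard error 0.37, adjusted p = 0.0147, limma).

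FABP4 (ENSSSCG00000040681) encodes the adipocyte fatty acid binding protein, which carries fatty acids in the cytoplasm. It had 108.0, 163.1 and 33.1 FPKM in the NC pigs and 86.4, 65.7 and 71.8 FPKM in the HFCF pigs. NC 3 was the lowest of the 6 and NC 2 the highest, with the HFCF pigs close together between them. FABP4 differed by -0.17 on the log2 scale (95% interval -1.44 to 1.09, adjusted p = 0.832, limma), -0.84 without NC 3 (adjusted p = 0.0515, limma), 0.01 without NC 1 and 0.31 without NC 2.

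PPARG (ENSSSCG00000011579), the nuclear receptor at the head of the adipocyte programme, was the only one of the 10 genes with a positive log2 fold change. It had 2.09, 3.99 and 0.36 FPKM in the NC pigs and 5.40, 3.99 and 3.09 FPKM in the HFCF pigs. HFCF 3 lay below NC 2, so the groups overlapped. PPARG differed by 1.37 on the log2 scale (95% interval -0.38 to 3.13, adjusted p = 0.206, limma) and 0.47 without NC 3 (adjusted p = 0.390, limma). Beside it, 10 of the 11 macrophage markers rose (adjusted p under 0.05, limma), against 22.8% of all tested genes. The count was 6 with no filter on low values and 8 without NC 1 or NC 3. None of these markers was listed at 0 in all pigs, and their summed level was 27.5 to 30.6 FPKM in the NC pigs and 307.8 to 775.9 FPKM in the HFCF pigs. The part of macrophages in the PPARG level was not tested.

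**Figure D2:**
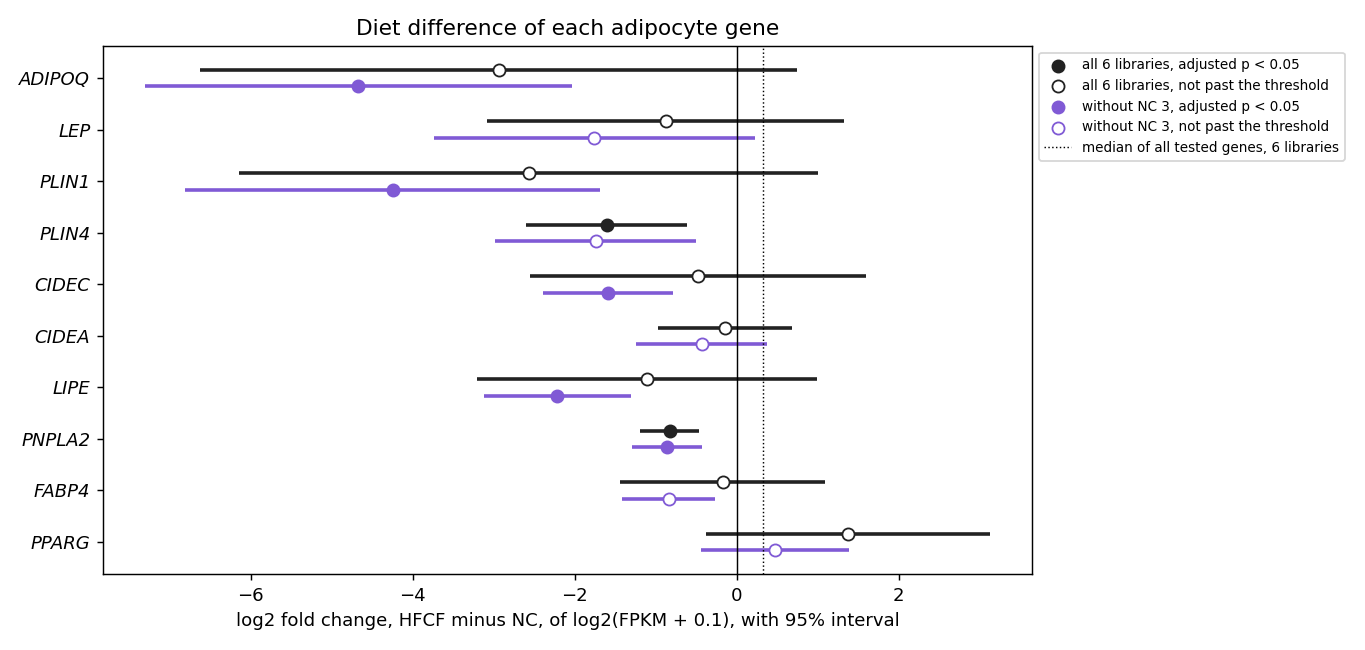
Log2 fold change (HFCF minus NC, of log2(FPKM + 0.1)) of each adipocyte gene with its 95% interval, in black with all 6 libraries and in purple without NC 3. Filled points have an adjusted p under 0.05 (limma) and the dotted line is the median of all tested genes, 0.32; the intervals of ADIPOQ, PLIN1, CIDEC and LIPE included 0 with all pigs and lay below 0 without NC 3.

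Most of these genes spread widely among pigs of one diet. In the NC group the highest value exceeded the lowest 48.9-fold for ADIPOQ, 49.7-fold for PLIN1, 20.7-fold for LEP, 14.3-fold for CIDEC, 13.5-fold for LIPE and 11.0-fold for PPARG. These 6 genes exceeded a 10-fold spread. Of the 10232 tested genes with an NC mean of at least 1 FPKM, 104, or 1.02%, exceeded it, and their median spread was 1.39-fold. LEP, with an NC mean of 0.80 FPKM, lies outside that set. FABP4 spread 4.93-fold and CIDEA 2.47-fold, whereas PLIN4 and PNPLA2, the called genes, spread 1.39-fold and 1.12-fold.

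In the HFCF group the spread above 10-fold was seen in 3 genes, PLIN1 (18.2-fold), LEP (15.0-fold) and ADIPOQ (13.5-fold). Of the 11486 tested genes with an HFCF mean of at least 1 FPKM, 190, or 1.65%, exceeded it, and their median spread was 1.43-fold. LEP, with an HFCF mean of 0.32 FPKM, lies outside that set. HFCF 2 was the lowest HFCF pig for 8 of the 10 genes, and how often it was the lowest over all tested genes was not counted. It had 43.9% of all genes listed at 0, against 41.4% in HFCF 1 and 43.5% in HFCF 3. The other genes varied less than in the NC group, with 2.02-fold for LIPE, 1.60-fold for CIDEC and 1.31-fold for FABP4, except PLIN4 (3.03-fold) and PNPLA2 (1.34-fold), which varied more. The difference in spread between the diets was not tested.

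Pooled over both diets, the within-diet SD of ADIPOQ was 2.54 on the log2 scale, above that of 99.9% of all tested genes, and that of PLIN1 was 2.46, above 99.8%. The SD of 6 of the 10 genes lay above the 90th percentile. PNPLA2, with an SD of 0.16, lay at the 14.1th percentile.

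Expressed relative to ADIPOQ in the same library, the genes varied to very different degrees. ADIPOQ is the denominator, so a gene that varies less than ADIPOQ has its lowest ratio where ADIPOQ is high and its highest where ADIPOQ is low. PLIN1 was 0.49, 0.56 and 0.55 times the FPKM of ADIPOQ in the NC pigs and 0.34, 0.81 and 1.10 times in the HFCF pigs. Its ratio thus varied 1.14-fold among NC pigs whose PLIN1 level varied 49.7-fold. For LEP the ratio ranged from 0.016 in NC 1 to 0.17 in HFCF 3, a 10.6-fold range, which was 5.71-fold with PLIN1 as the denominator.

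LIPE was 0.26 times the FPKM of ADIPOQ in both NC 1 and NC 2 and 0.96 times in NC 3, and 0.56, 6.74 and 1.02 times in the HFCF pigs. CIDEC was 0.37 and 0.44 times in NC 1 and NC 2, 1.49 times in NC 3 and 1.60, 16.6 and 1.97 times in the HFCF pigs. LIPE and CIDEC thus had a similar proportion to ADIPOQ in NC 1 and NC 2, but not in the other pigs. CIDEA also had similar ratios in NC 1 and NC 2, 0.025 and 0.027. ADIPOQ itself was similar in these pigs, with 39.1 and 59.9 FPKM against 0.30 to 4.08 FPKM in the others. Similar ratios there therefore say little about whether the genes vary together.

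FABP4 had 2.76 and 2.73 times the FPKM of ADIPOQ in NC 1 and NC 2, 27.0 times in NC 3, and 21.2, 218.1 and 17.8 times in the HFCF pigs. The ratio of PPARG was 0.053 in NC 1, 0.067 in NC 2, 0.30 in NC 3, 1.32 in HFCF 1, 13.3 in HFCF 2 and 0.76 in HFCF 3, a 248.3-fold range over the 6 pigs. PNPLA2 ranged from 2.01 times in NC 2 to 217.3 times in HFCF 2.

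**Figure D3:**
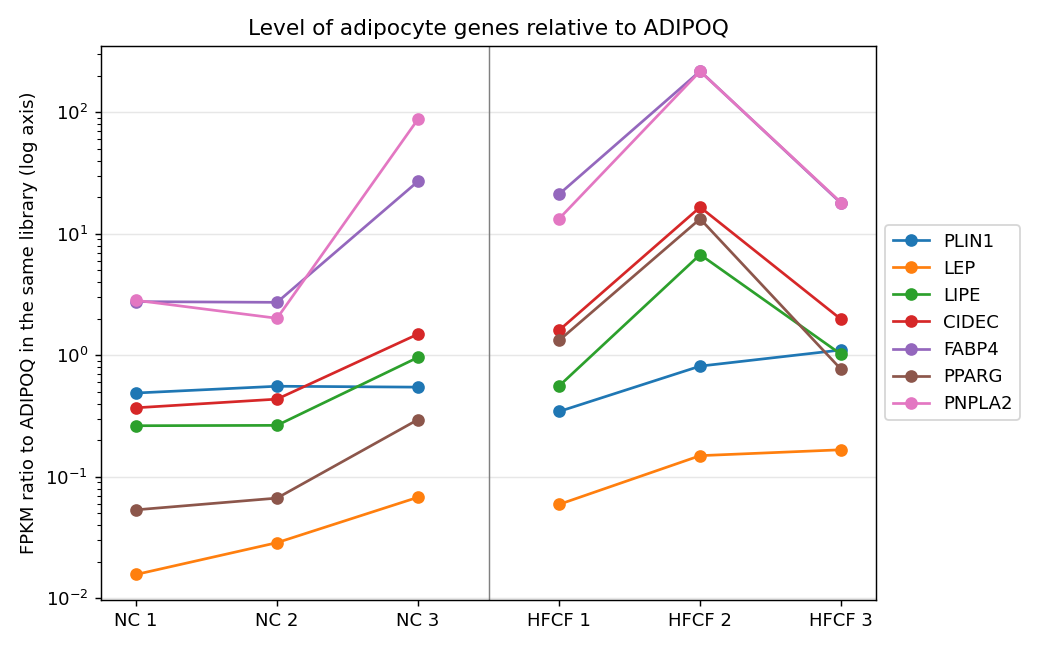
FPKM of 7 adipocyte genes divided by that of ADIPOQ in the same library, on a log axis, for each NC and HFCF pig; lines only join the points of a gene within a diet. PLIN1 stayed between 0.34 and 1.10 over all pigs, while FABP4 and PNPLA2 ranged 80.0-fold and 107.9-fold and were highest in HFCF 2.

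The genes whose levels most resembled that of ADIPOQ were sought among 10318 other genes with a symbol of their own and a mean of at least 1 FPKM, by the Pearson correlation of log2(FPKM + 0.1) over the 6 libraries. The closest 5 were THRSP (r = 0.996), WDR4 (0.992), DGAT2 (0.980), SPRY2 (0.979) and SLC26A2 (0.977). These values describe the likeness of 6 points that share 2 diet groups and rank the 5 genes among many candidates. THRSP, a regulator of fatty acid synthesis in fat and liver, had 5.46, 9.60 and 0.14 FPKM in the NC pigs and 0.89, 0.0088 and 0.61 FPKM in the HFCF pigs. DGAT2, the enzyme of the last step of triglyceride synthesis, had 17.6, 29.9 and 0.58 FPKM in the NC pigs and 4.31, 0.49 and 2.93 FPKM in the HFCF pigs.

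Both genes thus had the same order of pigs as ADIPOQ, with NC 1 and NC 2 far above the rest. WDR4, SPRY2 and SLC26A2 kept the same order over a narrow range, 2.01 to 3.62, 7.56 to 19.9 and 2.02 to 7.66 FPKM. Among the 10 adipocyte genes themselves, the correlation with ADIPOQ was 0.979 for PLIN1, 0.909 for LIPE, 0.907 for LEP, 0.840 for CIDEC, 0.804 for CIDEA, 0.789 for FABP4, 0.698 for PLIN4, 0.589 for PNPLA2 and 0.202 for PPARG. The values fell gradually from PLIN1 to PNPLA2, and PPARG lay apart below them.

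**Figure D4:**
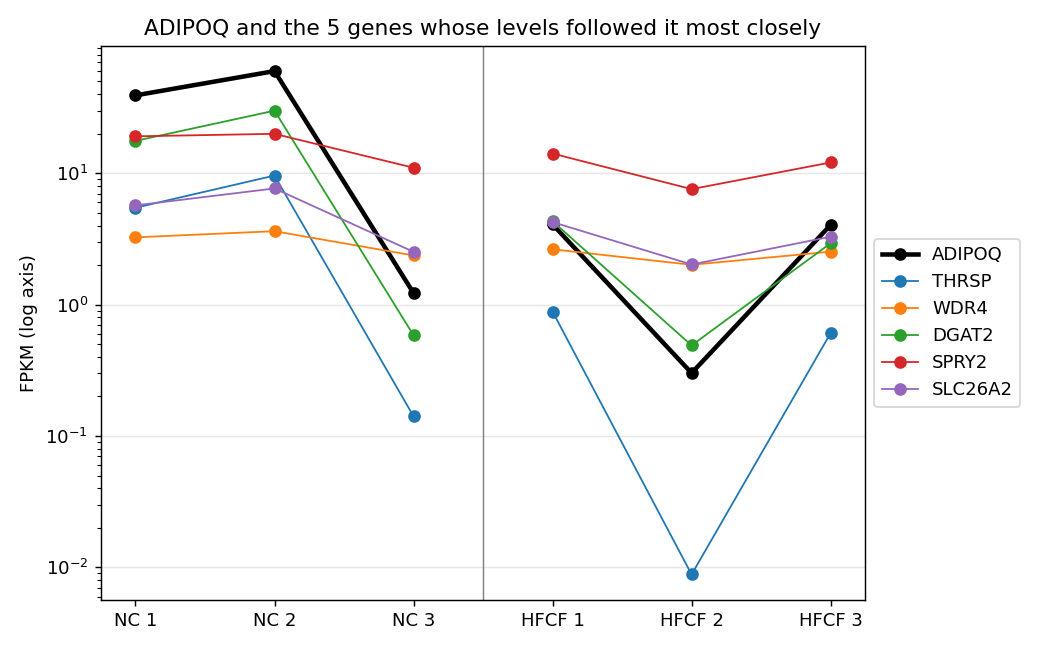
FPKM on a log axis of ADIPOQ (black) and of the 5 genes most correlated with it over the 6 libraries; lines only join the points of a gene within a diet. THRSP and DGAT2 fell with ADIPOQ in NC 3 and HFCF 2, and WDR4 kept the order of pigs within 2.01 to 3.62 FPKM.

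A 10-fold excess of both NC 1 and NC 2 over NC 3 was seen in 31 tested genes with an NC mean of at least 1 FPKM, 28 of them with a symbol, and ADIPOQ and PLIN1 were the 2 of the 10 genes among them. The 31 also held DGAT2, THRSP and LPL, and ADIG, the adipocyte protein adipogenin, which had 1.59 and 2.05 FPKM in NC 1 and NC 2 and was listed at 0 in NC 3, HFCF 1 and HFCF 2. CA3, the carbonic anhydrase of fat and muscle, had 11.9, 19.8 and 0.19 FPKM in the NC pigs and 1.37, 0.061 and 3.09 FPKM in the HFCF pigs. The developmental regulators HAND2, PITX1 and SHOX2 were also among the 31, with 0.73, 0.57 and 0.23 FPKM in NC 3. ADIG, CA3, HAND2, PITX1 and SHOX2 were chosen after their values were seen.

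Other regulators of fat cell formation were called in both directions. Of 10 such genes 9 were tested, of which 2 rose and 2 fell (limma), against 22.8% higher and 6.16% lower over all tested genes. The other 5 did not pass the test, and the median log2 fold change was 0.18. CEBPA, which acts with PPARG in adipocytes and is also a factor of myeloid cells, rose from 1.48 ± 0.93 to 21.0 ± 13.8 FPKM (SD, n = 3 each; log2 fold change 3.77, adjusted p = 0.00647, limma; 0.0550 with no filter on low values). Its NC values, 1.63, 2.34 and 0.49 FPKM, had the order of those of ADIPOQ. CEBPB, an early factor of fat cell formation and of inflammation, rose by 1.67 on the log2 scale (adjusted p = 0.00641, limma). KLF15, a glucocorticoid-induced regulator of metabolism, fell by 1.21 (adjusted p = 0.00695, limma), with 28.7, 27.4 and 18.5 FPKM in the NC pigs and 9.66, 11.9 and 10.03 FPKM in the HFCF pigs. SREBF1, which drives fatty acid synthesis, fell by 0.64 (adjusted p = 0.0330, limma), but without any 1 of NC 1, NC 2, NC 3, HFCF 2 or HFCF 3 its adjusted p was 0.0555 to 0.0983 (limma) and it was 0.0761 with no filter.

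Of 24 genes of triglyceride uptake, synthesis, storage and breakdown, 23 had a row and were tested. Of these, 5 rose and 1 fell (limma), near the shares of all tested genes, 22.8% higher and 6.16% lower. The other 17 did not pass, and the median of the list was 0.17. The count called ranged from 0 higher and 0 lower without NC 1 to 5 and 1 without NC 2, and was 1 and 0 with no filter on low values, 1 and 2 after median-ratio scaling, 1 and 1 after quantile normalization and 3 and 2 after rescaling to TPM. CD36, the fatty acid and oxidized lipoprotein receptor of fat cells, endothelium and macrophages, had 3.58, 6.07 and 1.26 FPKM in the NC pigs and 31.6, 17.6 and 11.1 FPKM in the HFCF pigs. Its log2 fold change was 2.55 (adjusted p = 0.0202, limma), with adjusted p-values of 0.0552 to 0.0652 without NC 1, HFCF 1 or HFCF 2 and 0.120 with no filter. GPIHBP1, which anchors lipoprotein lipase on capillaries, and G0S2, the inhibitor of PNPLA2, rose by 2.06 and 1.51 (adjusted p = 0.0325 and 0.0236, limma). FITM2, a protein of droplet formation, fell by 1.05 (adjusted p = 0.0232, limma). Without single pigs, GPIHBP1 lost its call 4 times (NC 1, HFCF 1, HFCF 2, HFCF 3; adjusted p 0.0648 to 0.0945), G0S2 4 times (NC 1, NC 3, HFCF 2, HFCF 3; 0.0668 to 0.0768) and FITM2 3 times (NC 1, NC 2, HFCF 2; 0.0603 to 0.0816). The call of GPIHBP1 was also lost with no filter and with all 3 scalings (adjusted p 0.0506 to 0.162, limma), that of G0S2 with no filter and after median-ratio scaling or quantile normalization (0.0628 to 0.122), and that of FITM2 with no filter (0.0866).

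Further genes of this list are given here as chosen after their values were seen. LPL, lipoprotein lipase of fat cells and macrophages, had 8.96, 13.3 and 0.73 FPKM in the NC pigs and 33.9, 17.2 and 14.4 FPKM in the HFCF pigs, a difference of 2.14 on the log2 scale (adjusted p = 0.147, limma). The 3 HFCF values lay above all NC values, as they did for 36.1% of all tested genes. PLIN2, the perilipin of lipid-laden cells in general, showed the opposite order in the NC group, with 3.98, 4.36 and 13.4 FPKM, and had 18.9, 10.6 and 9.69 FPKM in the HFCF pigs. PCK1, which makes glycerol phosphate in fat cells, had 0.85, 1.73 and 0.024 FPKM in the NC pigs, 0.036 and 0.51 FPKM in HFCF 1 and HFCF 3, and was listed at 0 in HFCF 2.

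Of 23 adipokines, receptors and hormone response genes, 21 had a row and 18 were tested. Of these, 2 rose and 2 fell (limma), against 22.8% higher and 6.16% lower over all tested genes. The other 14 did not pass, and the median of the list was -0.19. The counts of higher and lower calls were 0 and 2 without HFCF 2, 1 and 4 without NC 3 or HFCF 3, and 1 and 2 without each other pig. They were 0 higher and 3 lower after quantile normalization, 1 and 5 after median-ratio scaling and 1 and 4 after rescaling to TPM. INSR, the insulin receptor, fell from 7.56 ± 1.08 to 2.94 ± 0.36 FPKM (SD, n = 3 each; log2 fold change -1.33, adjusted p = 0.00413, limma). IRS1, which relays the signal of that receptor, fell from 3.31 ± 0.50 to 1.34 ± 0.091 FPKM (SD, n = 3 each; log2 fold change -1.24, adjusted p = 0.00731, limma). NC 3 had 7.34 FPKM of INSR and 3.79 FPKM of IRS1, at the level of the other NC pigs. LEPR, the leptin receptor, rose by 2.07 (adjusted p = 0.0181, limma; 0.0524 without NC 3, 0.0511 without HFCF 2 and 0.0983 and 0.0823 with no filter and after quantile normalization), and PDE3B, the phosphodiesterase through which insulin restrains lipolysis, rose by 0.89 (adjusted p = 0.0318, limma; 0.0632 to 0.0869 without any pig but NC 3). PDE3B was called in 5 of 15 alternatives: its log2 fold change was 0.55, 0.31 and 0.66 after median-ratio scaling, quantile normalization and rescaling to TPM (adjusted p = 0.117, 0.359 and 0.0993, limma), and its adjusted p was 0.0707 with no filter. CFD, the adipocyte serine protease adipsin, which macrophages also make, was high in all pigs, with 155.7, 213.7 and 52.3 FPKM in the NC pigs and 217.6, 105.2 and 204.5 FPKM in the HFCF pigs, and was chosen after its values were seen.

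Brown or beige adipocyte genes were mixed. Of 8 genes 7 had a row and 6 were tested. Of these, 2 rose, 1 fell and 3 did not pass (limma), against 22.8% higher and 6.16% lower over all tested genes. ELOVL3 had at most 0.033 FPKM in any pig. COX7A1, a subunit of cytochrome oxidase of heart, muscle and brown fat, rose from 5.80 ± 0.99 to 73.8 ± 12.9 FPKM (SD, n = 3 each; log2 fold change 3.64, adjusted p = 0.000255, limma). TMEM26, a marker of beige fat cells, rose by 1.94 (adjusted p = 0.0102, limma) to an HFCF mean of 0.64 FPKM. PRDM16, a regulator of brown fat that is also active in arterial cells, fell by 0.88 (adjusted p = 0.0129, limma; 0.0530 without NC 1). UCP3 had 0.68, 1.70 and 0.017 FPKM in the NC pigs and 0.048, 0.23 and 0.18 FPKM in the HFCF pigs, and was chosen after its values were seen.

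**Figure D5:**
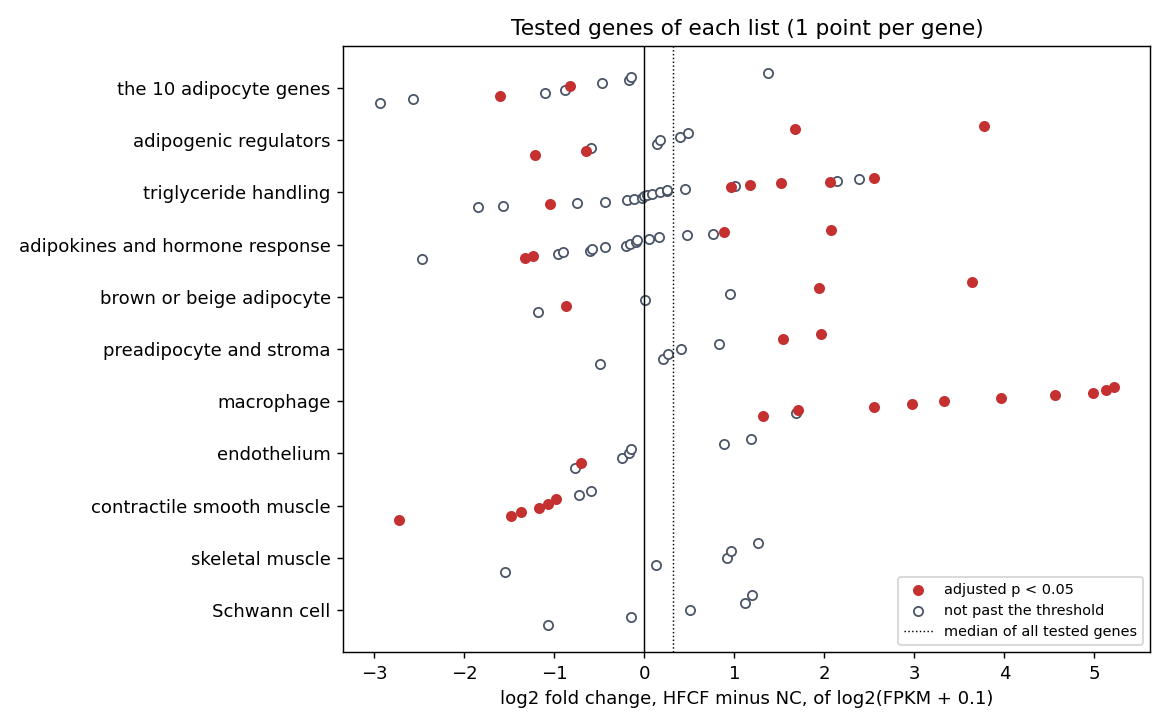
Log2 fold change (HFCF minus NC, of log2(FPKM + 0.1)) of each tested gene, 1 point per gene, in the 10 adipocyte genes and in each list of related or cell type genes. Red points have an adjusted p under 0.05 (limma) and the dotted line is the median of all tested genes, 0.32; macrophage markers lay to the right and smooth muscle markers to the left, with the adipocyte genes spread from -2.94 to 1.37.

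Markers of the other cells of the wall were read beside these genes. The background was again 22.8% of all tested genes called higher and 6.16% lower. Preadipocyte and adventitial stroma genes, 7 of 8 tested, rose in 2, LUM (log2 fold change 1.96, adjusted p = 0.00215, limma) and DPP4 (1.54, adjusted p = 0.0121, limma; 0.0520 with no filter and 0.0647 after quantile normalization), and DLK1, the marker of preadipocytes, was listed at 0 in all pigs. The summed level of this list was 420.0 FPKM in NC 3 against 546.3 and 893.5 FPKM in the other NC pigs. Of the 7 endothelial markers tested, 1 fell, ESAM (log2 fold change -0.71, adjusted p = 0.00921, limma), and 0 rose. TEK and KDR were higher at an unadjusted p under 0.05 only (log2 fold changes 1.18 and 0.88, adjusted p = 0.0541 and 0.111, limma). PECAM1, VWF, CDH5 and CLDN5 had uncalled log2 fold changes of -0.77 to -0.15. A rise was called in 1 marker with the replicate block, without HFCF 3 and with a mean of at least 1 FPKM. The summed level was 225.1 FPKM in NC 3, 300.4 and 342.0 FPKM in NC 1 and NC 2 and 163.1 to 307.7 FPKM in the HFCF pigs. Of the macrophage markers, the largest rises were those of MSR1, AIF1 and CD68 (log2 fold changes 5.22, 5.13 and 4.99, adjusted p = 0.00272, 0.000555 and 0.000645, limma), and NC 3 with 30.6 FPKM summed lay beside the 27.5 and 30.0 FPKM of NC 1 and NC 2.

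Of the smooth muscle markers, MYOCD, DES and SMTN fell most, with log2 fold changes of -2.72, -1.48 and -1.37 (adjusted p = 0.00543, 0.0124 and 0.0135, limma; SMTN 0.0610 without NC 1, DES and SMTN 0.106 and 0.109 with no filter), and the list held 2 lower calls without NC 1, 3 without HFCF 2 and 4 to 7 without each other pig. Skeletal muscle and Schwann cell markers gave 0 calls among 5 tested genes each (limma), with 1 gene each at an unadjusted p under 0.05, CKM lower and MBP higher in the HFCF group. Unlike CKM, the skeletal muscle markers MYH2, TNNT3, MYLPF and ACTA1 had log2 fold changes above 0 (1.27, 0.96, 0.91 and 0.13). The HFCF levels of TNNT3, MYLPF and ACTA1 were mostly those of HFCF 1 (0.60, 4.84 and 5.17 FPKM). These 3 genes had at most 0.033 FPKM in HFCF 2 and HFCF 3. MYH2 was highest in HFCF 2, with 4.25 FPKM. CKM, muscle creatine kinase, had 3.84, 4.21 and 0.92 FPKM in the NC pigs and 1.13, 0.67 and 0.63 FPKM in the HFCF pigs (adjusted p = 0.0829, limma; 0.0113 without NC 3). NC 3 thus also had the lowest NC value of this marker of skeletal muscle. The same held for MYH2, TNNT3, MYLPF and ACTA1, which had at most 0.68 FPKM in any NC pig. The part of the tissue around the aorta in the NC 3 values was not tested.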

How the data were processed

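Total RNA of abdominal aorta was sequenced as paired-end reads, 1 library per pig. The authors trimmed and checked reads with cutadapt 1.9 and FastQC, used HISAT2 for alignment and StringTie for assembly, and the deposited unit is FPKM per gene. The pig genome build of the methods is older than that of the reference table, so no coordinates are given. Values of 0.0001 FPKM were read as 0.

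Values were analysed as log2(FPKM + 0.1) for genes with a mean of at least 0.1 FPKM, with limma 3.58.1 in R 4.3.3 (diet was the single factor, and eBayes used a trend) and Benjamini-Hochberg adjusted over 15384 genes. The procedure was tested on simulated data. The methods name thresholds but no test for RNA-Seq. Nothing in the labels pairs the pigs. All 10 genes were named, and in each other list up to 3 called genes per direction by log2 fold change, or else the 2 with the highest mean, and the 5 genes most correlated with ADIPOQ. Members and lists were chosen with earlier results of these data known. 9 alternatives and the omission of each pig were run. Symbols missing from the name column were matched through NCBI gene numbers in the deposited descriptions and RefSeq's table (Sscrofa11.1). Deposited annotation terms were not used. A gene that the rule also names is not reported here.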

Additional observations from a re-analysis of the deposited data

How the results depend on the processing

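PNPLA2 kept its direction and its call in all 15 alternatives, and PPARG, ADIPOQ, PLIN1, PLIN4, LIPE and LEP kept their direction in each alternative in which they were tested. PLIN4 (log2 fold change -1.60) lost its call with no filter on low values (adjusted p = 0.146) and with the replicate block (adjusted p = 0.0613), for which the fold change is the same by construction. Of the 10 adipocyte genes, 1 was called with no filter, 1 with the replicate block and 1 by the thresholds of the study, and between 1 and 5 when single pigs were left out, in each case lower in the HFCF group. The log2 fold changes with single pigs left out ran from -4.67 to -1.81 for ADIPOQ, -1.76 to -0.10 for LEP, -4.25 to -1.53 for PLIN1, -2.12 to -1.33 for PLIN4, -1.59 to 0.29 for CIDEC, -0.43 to 0.16 for CIDEA, -2.21 to -0.39 for LIPE, -0.92 to -0.71 for PNPLA2, -0.84 to 0.31 for FABP4, 0.47 to 2.05 for PPARG, -0.33 to 0.0034 for PMP22, -0.12 to 0.89 for CFD and -0.99 to 0.025 for AQP7.

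Over all tested genes, the number called was 2516 with no filter (1932 higher, 584 lower), 2772 with the replicate block (2232 higher, 540 lower) and 2399 to 3562 without single pigs (1961 to 2800 higher, 438 to 784 lower). The number called higher was 2032, 1748 and 2229, and lower 1968, 1782 and 1527, after median-ratio scaling, quantile normalization and rescaling to TPM. Deviations of same-numbered pigs from their diet means correlated at 0.02, -0.08 and -0.07. With 3 pigs per diet such values cannot exclude a pairing, and no label gives one. The replicate block left 4 of 8 smooth muscle markers called lower, 3 genes of the triglyceride list higher and 0 lower, and adjusted p-values of 0.0607, 0.0580, 0.0610, 0.0571 and 0.0653 for SREBF1, GPIHBP1, FITM2, LEPR and PDE3B (limma). The cause of the other changes was not tested. With PLIN1 in place of ADIPOQ as the reference, the range of the ratio went from 10.6-fold to 5.71-fold for LEP, 44.8-fold to 26.9-fold for CIDEC, 103.3-fold to 65.9-fold for CIDEA and 248.3-fold to 149.1-fold for PPARG. Depth was known only in relative terms, so no counting error is given for genes under 1 FPKM such as LEP.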
